A study of Mus musculus with 4 samples.

Results

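The Thbd/Ptgis mesenchyme is a group of connective tissue cells in the fetal mouse penis chosen by a set of marker genes that includes thrombomodulin (*Thbd*) and prostacyclin synthase (*Ptgis*). Members were kept cells with at least 3 of 6 marker genes detected, *Thbd*, *Ptgis*, *Ndufa4l2*, *Angptl1*, *Tmeff2* and *AW551984*, and with no transcript of *Cdh5* (endothelium) or *Rgs5* (pericytes). A kept cell had 1000 to 10000 unique molecular identifiers (UMIs, each standing for 1 captured mRNA molecule), at most 25% of them from mitochondrial and at most 25% from hemoglobin genes. The rule found 2317 members among 33704 kept cells (6.87%) of the 47040 cells deposited.

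Thrombomodulin binds thrombin at the cell surface and turns it from a clotting enzyme into an activator of the anticoagulant protein C. Prostacyclin synthase makes prostacyclin, a lipid signal that widens vessels and keeps platelets from clumping. Both are best known from vessel walls. In the fetal penis, loose mesenchyme surrounds the urethra, fills the preputial folds and lies beneath the skin, and its fibroblasts respond to androgens, to glucocorticoids and to Wnt, bone morphogenetic protein (BMP) and insulin-like growth factor (IGF) signals.

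The libraries were 10x Genomics 3' libraries of male genitalia at embryonic day (E) 16.5, 2 labelled DTA- (genotype WT) and 2 labelled DTA+. The DTA- embryos, here called control, lacked the *Nr5a1-Cre* transgene and carried the silent *Rosa-LSL-DTA* allele. The DTA+ embryos, here called ablated, carried both, so that cells with a history of *Nr5a1-Cre* activity made diphtheria toxin. The fathers also carried *Rosa-LSL-tdTomato*, a Cre-dependent red reporter at the same locus. The transgene is active outside the penis as well, and the study describes lost adrenals and small testes in ablated embryos, so the loss of *Nr5a1* lineage cells in the penis and that of adrenal and testis hormones cannot be told apart here. No label says whether a library came from 1 embryo or from several, and p-values therefore measure the spread between these libraries, which may be technical.

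The first control library held 679 members with 4007430 UMIs and the second held 652 members with 3417764 UMIs. In the ablated libraries the numbers were 481 members with 2007993 UMIs and 505 members with 2349511 UMIs. Median UMIs per member were 5595 and 4842 in control and 3579 and 4044 in ablated libraries, so the ablated members were measured less deeply. Between 31 and 48 cell barcodes were shared by any 2 libraries.

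The members were mesenchymal by their markers. At least 3 of 6 general mesenchyme genes (*Col1a1*, *Col1a2*, *Col3a1*, *Pdgfra*, *Dcn*, *Postn*) were detected in 2310 of 2317 members (99.7%), and the summed level of the 6 was higher than in the other mesenchyme of the same library by 0.39, 0.60, 0.56 and 0.56 on the log2 scale (first and second control, first and second ablated library, the order used throughout). The other mesenchyme, 26389 kept cells with at least 3 of these 6 genes that were neither members nor cells with 2 or more markers of another lineage, served as the comparison. Macrophage markers summed to 0.998, 4.68, 29.9 and 4.68 CPM (counts scaled to a common library total) in the members, led by *Tyrobp* in the first control library and *Fcer1g* in the others. The macrophage gene *Ptprc* was at 0 in both control libraries. Endothelial markers summed to 9.73, 11.996, 11.95 and 15.7 CPM and mesothelial markers to 0, 2.05, 1.49 and 2.13 CPM. Erythroid markers were far more abundant, at 5403, 2172, 2734 and 551 CPM in the members and 3892, 3850, 2191 and 936 CPM in the other mesenchyme, led by the globin gene *Hbb-bs* in each library. None of the 4 tested erythroid genes was called by edgeR between the genotypes in the members, though 3 had an unadjusted p under 0.05, and 1, *Hbb-bt*, fell in the other mesenchyme (list median -1.32 in the members and -1.31 in the other mesenchyme). The part of red cell RNA in the results below was not tested. Of the members, 111 (4.79%) held 2 or more markers of another lineage, and leaving them out left 503 genes called between the genotypes in place of 515 (below).

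Since the 6 markers chose the members, their levels are a description. *Thbd* (chr2:148404466-148408188, GRCm38, minus strand) was at 186, 208, 186 and 188 CPM in the members and at 9.46, 17.3, 20.9 and 15.8 CPM in the other mesenchyme. *Ptgis* (chr2:167191805-167240604, minus strand) was at 221, 181, 140.4 and 176 CPM against 29.7, 26.4, 11.4 and 13.2 CPM. The ablated libraries lay below the controls for *Ptgis* in both populations, while *Thbd* in the members was level across the 4 libraries. *AW551984*, a protein-coding gene without an established name, ran the other way, at 328, 342, 485 and 439 CPM in the members and 54.7, 61.6, 125 and 111 CPM in the other mesenchyme. *Ndufa4l2*, a hypoxia-responsive mitochondrial protein, was at 805, 625, 649.9 and 729 CPM, *Angptl1*, a secreted angiopoietin-like protein, at 71.9, 115, 164 and 134 CPM, and *Tmeff2*, a membrane protein with follistatin domains, at 40.7, 43.3, 86.2 and 56.6 CPM.

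The shares of members with *Ptgis* and with *AW551984*, taken from the same UMIs as the levels, went the same way. Both genes are markers of the rule, which ties their shares among the members to each other. These shares are therefore a description too. A *Ptgis* UMI was found in 75.8% and 63.2% of control and 46.4% and 54.7% of ablated members, and an *AW551984* UMI in 83.4% and 84.4% against 90.4% and 88.7%. Thinned to 1000 UMIs per cell, with the members still those chosen before thinning, these shares were 18.7%, 19.3%, 15.8% and 17.8% for *Ptgis*. For *AW551984* they were 30.2%, 29.3%, 39.5% and 37.0%. In macrophages, which should lack it, a *Ptgis* UMI was seen in 0 to 0.847% of cells. An *AW551984* UMI was seen in 1.69%, 4.69%, 5.15% and 8.46% of macrophages, a background that was higher in both ablated libraries as well. *Thbd* or *Ptgis* was detected in 2055 members (88.7%) and both in 737. The most frequent of 41 marker combinations was *Ptgis* with *Ndufa4l2* and *AW551984*, in 370 members.

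Beyond the markers, the 15 genes most enriched over the other mesenchyme in both control libraries were *Mfap5*, *Wnt2*, *Ltbp2*, *Agtr2*, *Rtl3*, *Calml4*, *Dio3*, *Maf*, *Efemp1*, *Irx3*, *Atp1b1*, *Clu*, *Cd34*, *Cebpd* and *Sfrp2*. *Mfap5*, a component of elastic microfibrils, was at 121, 192, 152 and 141 CPM in the members and at 26.0, 39.2, 46.2 and 37.9 CPM in the other mesenchyme. *Agtr2*, the type 2 angiotensin receptor, was at 84.3, 189, 179.8 and 133 CPM against 20.01, 28.8, 26.2 and 21.6 CPM. *Cd34*, a surface sialomucin of fibroblast progenitors and endothelium, was at 131, 189, 136 and 102 CPM against 40.3, 49.6, 43.8 and 40.6 CPM. For all 3 genes each member value lay above every value of the other mesenchyme. *Ltbp2* and *Efemp1* encode further elastic fibre proteins, *Wnt2* a Wnt ligand, *Dio3* the deiodinase that inactivates thyroid hormone, and *Maf* and *Irx3* transcription factors. Of the 15, 14 were higher in the members in all 4 libraries, and *Cebpd* was the exception, with log2 ratios of 1.66, 1.54, -0.06 and 0.04.

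The 15 genes chosen as furthest below the other mesenchyme in both control libraries included *Apcdd1*, *Tfap2a*, *Apela*, *Pde4d*, *Trps1*, *Nkd2* and *Tril*. Also among them were *Chst15*, *Tac1*, *Inhba*, *Rspo1*, *Nnat*, *Ifitm1* and *Col23a1*, and these 14 were lower in the members of the 4 libraries. Each of the 14 was above 50 CPM in the other mesenchyme of both controls. *Msx2*, below that level there in the second control library, had log2 ratios of -2.40 and -2.20 in the controls. *Apcdd1*, an inhibitor of Wnt signalling at the cell surface, was at 33.7, 38.9, 53.3 and 40.9 CPM in the members and at 218, 233, 276 and 284 CPM in the other mesenchyme. *Tfap2a*, a transcription factor of skin and facial mesenchyme, was at 16.7, 22.2, 38.3 and 30.2 CPM against 94.8, 117, 119.8 and 139 CPM. *Nkd2*, another Wnt inhibitor, had log2 ratios of -1.87, -1.70, -2.11 and -1.99.

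**Figure D1:**
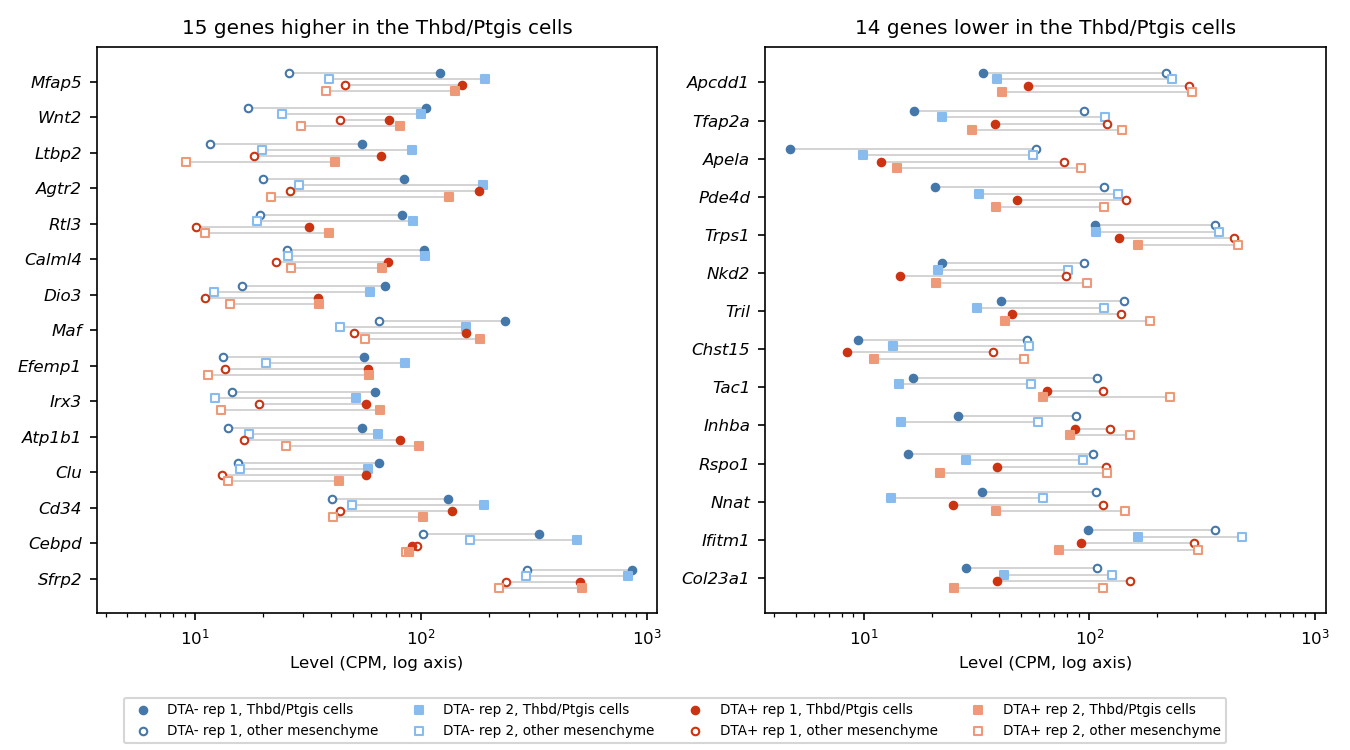
Levels in CPM on a log axis of the 15 genes chosen as highest (left) and 14 of the 15 chosen as lowest (right). The choice was by the Thbd/Ptgis cells of the controls relative to the other mesenchyme. Filled symbols are the Thbd/Ptgis cells and open symbols the other mesenchyme of each of the 4 libraries; for *Cebpd* the ablated members (91.6 and 88.1 CPM) lie among the open symbols.

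Marker lists for sites and kinds of mesenchyme differed in their summed level between the members and the other mesenchyme. The summed level of the adventitial or fascial list (*Dpt*, *Pi16*, *Dpp4*, *Clec3b*, *Mfap5*, *Cd34*) was higher in the members by 1.63, 1.84, 1.73 and 1.21 on the log2 scale, its most abundant gene being *Cd34* in the first control library and *Dpt* in the others. *Dpt*, *Mfap5* and *Cd34* made up most of this sum, and in the first control library *Pi16*, *Dpp4* and *Clec3b* were each below 1 CPM and lower in the members. The tendon or fibrous list was higher by 0.67, 0.88, 1.18 and 1.39, its most abundant gene being *Kera* in all 4 libraries. The tendon gene *Tnmd* was at 0 in the members of all 4. *Kera* and *Scx* were higher in the members of every library, and *Fmod* in all but the first ablated library. *Mkx* and *Thbs4* were lower in the members of both control libraries and the first ablated library. The fat progenitor list was higher by 0.67, 1.10, 1.32 and 0.95, nearly all of it the preadipocyte factor *Dlk1*. In contrast, the distal glans list was lower by 2.05, 1.84, 0.99 and 1.57 in those libraries. The dermal condensate list had ratios of -1.14, -1.42, -0.87 and -1.05, and the smooth muscle list -1.17, -0.44, -1.11 and -1.27. *Des*, which encodes desmin, ran against the smooth muscle sum, at 56.6, 85.7, 36.4 and 21.3 CPM in the members and 21.1, 28.9, 11.5 and 12.05 CPM in the other mesenchyme. The dermis list, with -0.21, -0.13, -0.22 and -0.17, and the periurethra list, with 0.47, 0.13, -0.23 and 0.15, lay near the other mesenchyme in their sums, with genes that went opposite ways. *Prrx1* (501, 473, 816 and 793 against 413, 378, 556 and 600.3 CPM) and *Foxf2* (147, 126, 136 and 198 against 88.1, 85.1, 98.2 and 120.3 CPM) were higher in the members of every library, whereas the dermal genes *Twist2* and *Lum* and the periurethral genes *Foxl2* and *Sall3* were lower in every library. The general prepuce list was higher by 0.51, 0.86, 0.27 and 0.10, led by *Akap12*, while its gene *Syt1* was lower in every library. The pericyte list was higher by 0.42, 0.47, 0.92 and 0.59, with *Cspg4*, *Kcnj8* and *Abcc9* higher and *Notch3* lower in every library and *Rgs5* at 0 by the rule.

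Counted by cell, the members were 191 of the 514 mesenchymal cells with at least 3 adventitial or fascial markers (37.2%) and 21 of the 52 with at least 3 tendon markers (40.4%), beside 8.07% of all 28706 mesenchymal cells. They were 121 of 1189 cells at the periurethra gate (10.2%), 836 of 11805 at the dermis gate (7.08%) and 34 of 2472 at the distal glans gate (1.38%). By library, the share at the periurethra gate was 17.1%, 13.8%, 2.79% and 5.74%, beside 10.5%, 8.94%, 6.94% and 6.30% of all mesenchymal cells, so that it lay above the share of all mesenchyme in both control libraries and below it in both ablated libraries. Still, only 6.04%, 12.1%, 9.77% and 4.75% of the members of the 4 libraries passed the adventitial or fascial gate and 0.884%, 1.07%, 0.416% and 1.19% the tendon gate, so most members carried fewer than 3 genes of either list. Over 11358 genes, the log2 levels of the controls correlated most with those of the periurethra-gated cells (r = 0.962), the dermis-gated cells (0.961) and the adventitial or fascial-gated cells (0.949), a description over genes of the same libraries. With members left out, these gates held 1068, 10969 and 323 cells over the libraries. The tendon or fibrous gate (31 cells) and the fat progenitor gate (35) had the lowest r (0.766 and 0.786). The part of cell number in this ranking was not tested. The cells had no spatial label, and the site of the members in the penis was not measured.

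**Figure D2:**
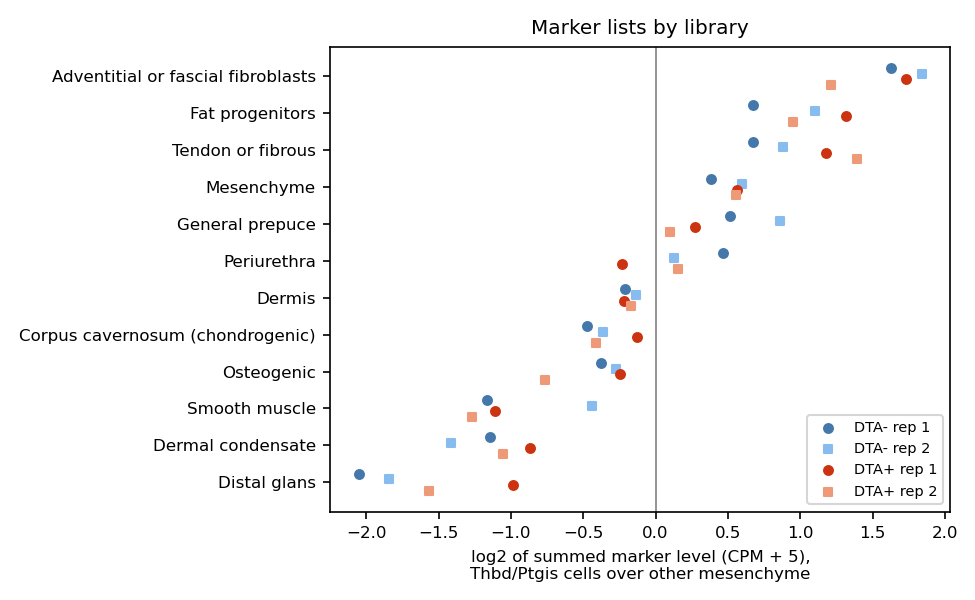
Summed level of 12 marker lists in the Thbd/Ptgis cells relative to the other mesenchyme of the same library (log2 of CPM + 5), with a symbol for each library. The adventitial or fascial list is above 0 in all 4 libraries (1.21 to 1.84) and the distal glans list below 0 (-2.05 to -0.99).

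Homeobox and T-box genes, which mark position along the body and the genital tubercle, were in part alike and in part different in the members and the other mesenchyme. Of the 15 tested *Hox* genes, 14 lay within 0.5 of the other mesenchyme on the log2 scale in all 4 libraries, as did 18 of all 37 tested position genes. *Hoxd13*, the most posterior gene of its cluster, was at 101, 83.1, 94.1 and 109 CPM in the members and at 86.7, 83.8, 73.9 and 108 CPM in the other mesenchyme, and *Tbx4*, a hindlimb and genital gene, had log2 ratios of 0.0031, -0.11, 0.0014 and -0.33. *Msx2*, a homeobox factor on the distal glans list, was at 11.5, 5.56, 5.48 and 14.9 CPM against 81.9, 43.6, 46.4 and 109 CPM. *Hand2* was at 10.5, 14.3, 9.96 and 11.1 CPM against 34.1, 32.1, 34.1 and 41.2 CPM. *Irx5* went the other way with its neighbour *Irx3*, at 214, 131, 251 and 271 CPM against 90.1, 78.4, 90.8 and 84.0 CPM. The member values of *Msx2*, *Hand2* and *Irx5* did not overlap those of the other mesenchyme.

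The threshold of 3 markers cut a gradient. Kept cells outside the barred genes had 0 markers in 14919 cases, 1 in 11147, 2 in 3955, 3 in 1457, 4 in 610, 5 in 214 and all 6 in 36. These groups were not limited to mesenchyme, and the part of other lineages in the gradient was not tested. *Mfap5* was at 67.7, 85.3, 81.3 and 79.7 CPM in cells with 2 markers, just outside the rule, and at 117, 186, 126 and 143.5 CPM in cells with 3 markers, just inside. *Apcdd1* fell across the same step from 81.8, 103, 118 and 127 CPM to 46.3, 48.2, 55.7 and 48.7 CPM. *Inhba*, the activin subunit, stood at 51.6, 38.9, 111 and 126 CPM outside and 39.1, 19.2, 102 and 94.8 CPM inside. For *Mfap5* and *Apcdd1* the groups on the 2 sides of the threshold did not overlap, and for *Inhba* they did. The members with 4 or more markers numbered 292, 262, 138 and 168.

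**Figure D3:**
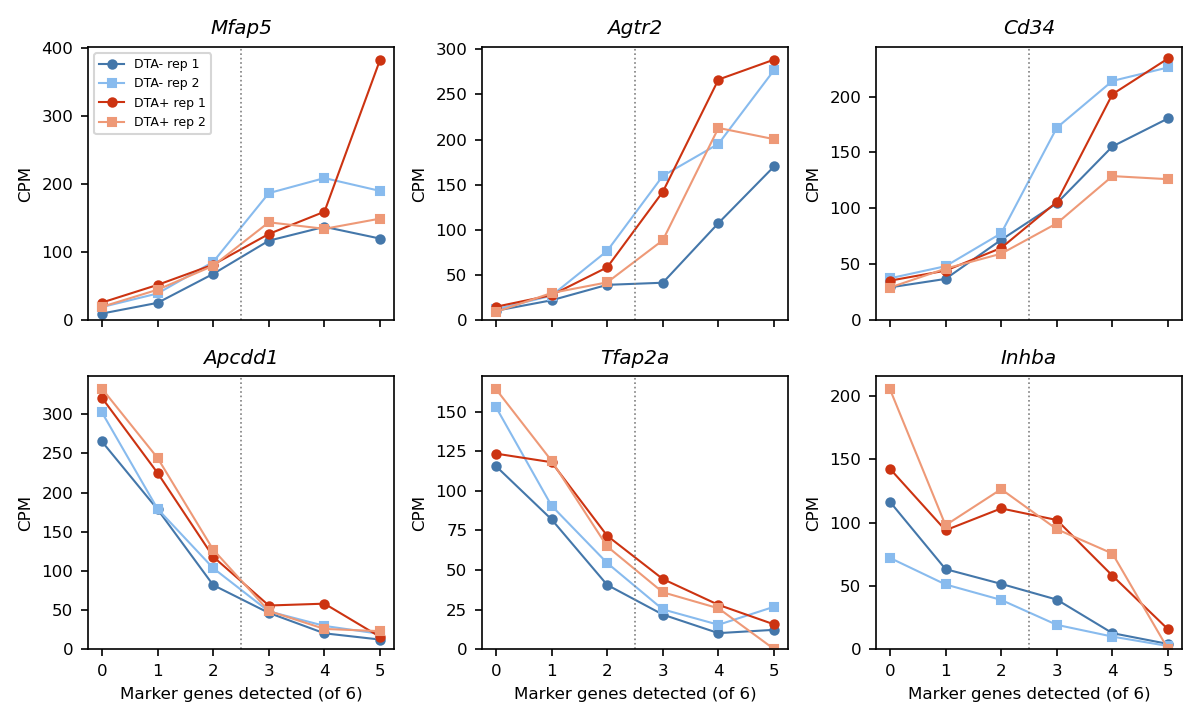
Level in CPM of 6 genes against the number of marker genes detected (0 to 5 of 6) in kept cells, 1 line for each library, with a dotted line at the threshold. The cells are all kept cells without *Cdh5* or *Rgs5*, mesenchymal or not. From 0 to 3 markers *Mfap5*, *Agtr2* and *Cd34* rise and *Apcdd1* and *Tfap2a* fall in all 4 libraries, and *Inhba* lies higher in both ablated than in both control libraries from 0 to 4 markers.

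The members made up 8.93% of the kept cells in the first control library (95% Wilson interval 8.31 to 9.60) and 7.73% (7.18 to 8.32) in the second. In the ablated libraries they made up 5.79% (5.31 to 6.32) and 5.39% (4.95 to 5.87), and these intervals cover counting error only. Both ablated shares lay below both control shares, 5.59% ± 0.284 against 8.33% ± 0.850 (SD, n = 2 each), a log2 ratio of -0.58. An exact two-sided permutation test gave p = 0.3333, the smallest p that 2 against 2 libraries allow. The shares move with depth and with the markers. Thinned to 1000 UMIs per cell they were 0.855%, 0.866%, 1.00% and 0.683%, with the groups overlapping, and thinned to 3000 UMIs 5.51%, 5.30%, 3.63% and 4.23%. Fewer such cells and less marker RNA per cell cannot be told apart from these shares.

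Within the members, the UMIs of all cells of a library were added up, and these sums were tested for a genotype difference by the quasi-likelihood method of edgeR (p-values adjusted by Benjamini-Hochberg). The mix of cells in these sums differed between the genotypes. Members with 4 or more markers were 292 of 679 and 262 of 652 in control, and 138 of 481 and 168 of 505 in ablated libraries. The part of this mix in the fold changes below was not tested. Of 11432 genes tested, 515 had a Benjamini-Hochberg adjusted p under 0.05 (4.50%), 240 higher in ablated penises (2.10%) and 275 lower (2.41%), and 299 of them differed by at least 1 on the log2 scale. At an unadjusted p under 0.05 there were 2331 genes, and DESeq2 called 260. The libraries of the 2 groups did not overlap for any of the 515, as was the case for 50.7% of all genes tested. With at least 2 of *Thbd*, *Ptgis*, *Angptl1* and *Tmeff2* required instead of the rule, which leaves out *Ndufa4l2* and *AW551984* and asks for fewer markers, 258 genes were called. Without the first or the second ablated library the count was 330 and 367, and without the first or the second control library it was 1143 and 1731. In these fits the lone library of a group was assumed to vary like the other group. Levels below are TMM-corrected CPM, fold changes are those of ablated over control, and each error of a mean is an SD over 2 libraries.

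Apart from the reporter *tdTomato*, *Sfrp1* and *Stc1* had the largest rises by the rule on names. *Sfrp1* (chr8:23411502-23449632, GRCm38, plus strand), which binds and blocks Wnt ligands, was at 6.39 and 5.11 CPM in control and 53.7 and 56.5 CPM in ablated libraries. The log2 fold change came to 3.24 (standard error 0.238, edgeR adjusted p = 1.02e-05). *Stc1*, a secreted glycoprotein that acts on calcium and phosphate and inhibits the pappalysin proteases, was at 30.4 and 15.02 against 185 and 196 CPM (log2 3.05, standard error 0.248, edgeR adjusted p = 2.79e-05). Both genes were low in both control and high in both ablated libraries. *Dkk2*, a further secreted Wnt inhibitor, was at 42.7 and 49.9 against 184 and 183 CPM, a log2 fold change of 1.99 (standard error 0.166, edgeR adjusted p = 2.79e-05). *Inhba*, which forms activin A, was at 26.8 and 15.02 against 84.4 and 81.4 CPM (log2 1.97, edgeR adjusted p = 0.000656). *Tac1*, the precursor of substance P, was at 16.9 and 14.7 against 63.9 and 62.0 CPM (log2 1.99, edgeR adjusted p = 0.000145). None of these groups overlapped. *Emb*, a partner of lactate transporters (2.39), *Nefm*, a neurofilament protein (2.02), *Ccn3*, a matricellular protein (1.85), *Col8a1*, a short-chain collagen (1.80), and *Nrp2*, a semaphorin and vascular growth factor co-receptor (1.74), completed the genes that rose most by the rule on names. *Nefm* was not called by DESeq2 and was at 2.56 and 16.2 CPM in the controls, a wide spread.

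**Figure D4:**
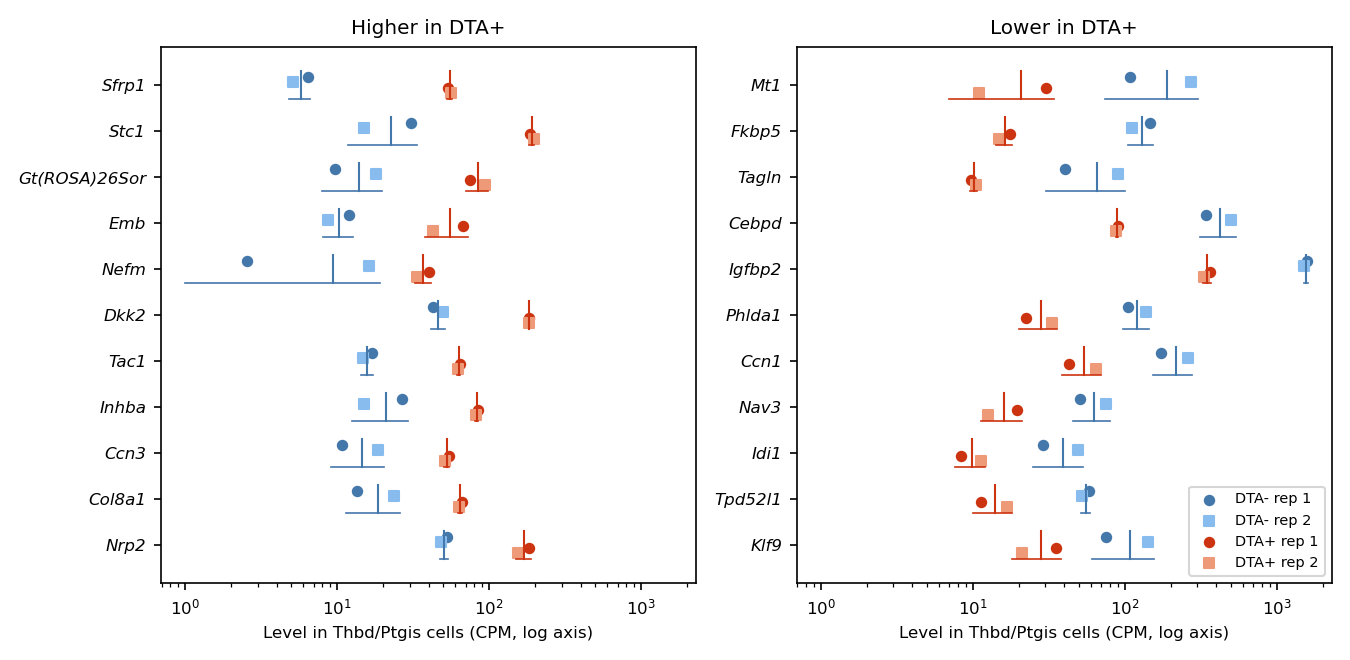
Levels in the Thbd/Ptgis cells of the named genes that rose most (left) and fell most (right), in CPM on a log axis, 1 symbol for each library. Ticks are group means and horizontal bars 1 SD over 2 libraries, with the lower end drawn no lower than 1 CPM; the control and ablated symbols do not overlap for any gene shown.

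Transcripts from the *Rosa* locus differed between the genotypes in the members as in the other mesenchyme. *tdTomato* had 0 UMIs in the members of both control libraries and 182 and 187 UMIs (88.8 and 78.8 CPM) in those of the ablated libraries. A *tdTomato* UMI was present in 27.2% and 29.3% of ablated members, in 22.8% and 22.0% of the other mesenchyme and in 23.5% and 24.6% of macrophages, at medians of 3579 and 4044 UMIs per member and 5369.5 and 5789.5 per macrophage. The study's methods describe leaky transcription of the reporter, and no member had more than 10 *tdTomato* UMIs. In the controls, 0 of 679 and 0 of 652 members allows a share of up to 0.442% and 0.460% of cells with a UMI, which covers counting error only. The labels do not say whether the control embryos carried the reporter allele, so the lack of Cre and that of the allele cannot be told apart in these counts. *Gt(ROSA)26Sor*, an antisense gene at the locus that holds the inserted alleles, was at 9.71 and 18.03 against 74.7 and 94.0 CPM (log2 2.62, standard error 0.256, edgeR adjusted p = 0.000133). *Nr5a1* itself had no UMI in any member.

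Among glucocorticoid-induced genes, those called all fell. Of 23 tested genes of a list drawn up for this class, 0 rose, 14 were not called and 9 fell (*Fkbp5*, *Mt1*, *Mt2*, *Sult1a1*, *Cebpd*, *Klf9*, *Errfi1*, *Rgs2* and *Zbtb16*, against 2.41% of all genes tested), with a median log2 fold change of -0.68 beside -0.00169 over all genes tested, which is the value to set beside each list median below. *Fkbp5* (chr17:28399094-28517527, GRCm38, minus strand), a co-chaperone of steroid receptors and a standard glucocorticoid target, was at 145 and 112 CPM in control and 17.6 and 14.8 CPM in ablated libraries. The change on the log2 scale came to -2.997 (standard error 0.218, edgeR adjusted p = 1.02e-05). *Klf9*, a zinc finger factor of the same response, was at 74.9 and 141 against 35.1 and 21.1 CPM, and *Errfi1*, a feedback inhibitor of the epidermal growth factor receptor, at 88.7 and 128 against 30.3 and 26.1 CPM. *Cebpd*, a C/EBP factor of stress responses and adipogenesis, was at 343 and 502 against 89.8 and 87.3 CPM (log2 -2.25, standard error 0.191, edgeR adjusted p = 2.97e-05). In all 4 genes the higher ablated library stayed below the lower control library. *Zbtb16* was not called by DESeq2 or without the second ablated library (log2 -0.78, edgeR adjusted p = 0.325). Other members of the list were not called, among them *Tsc22d3* at 83.3, 53.5, 42.5 and 54.4 CPM, *Per1* with a log2 fold change of -0.45 and *Dusp1* with 0.19.

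The metallothioneins *Mt1* and *Mt2*, small proteins that bind zinc and copper and are induced by metals and glucocorticoids, fell furthest of that list. *Mt1* was at 108 and 271 CPM in control and 30.3 and 10.96 CPM in ablated libraries (log2 -3.22, standard error 0.431, edgeR adjusted p = 0.00135). *Mt2* was at 14.8 and 41.2 against 0.488 and 1.69 CPM (log2 -4.56, standard error 0.656, edgeR adjusted p = 0.00196), the ablated values standing for 1 and 4 UMIs. The controls differed from each other for both genes, the second being the higher, and still lay above both ablated libraries. Their promoters are shown because both genes fell together and lie next to each other. The sequences are from RefSeq (GRCm38.p6), 250 bases before to 50 bases after the gene start on the plus strand, chr8:94178839-94179138 for *Mt1* and chr8:94172368-94172667 for *Mt2*, with matches to TGCGCNC or TGCACNC, the core of the metal response element, in capitals on either strand.
Mt1: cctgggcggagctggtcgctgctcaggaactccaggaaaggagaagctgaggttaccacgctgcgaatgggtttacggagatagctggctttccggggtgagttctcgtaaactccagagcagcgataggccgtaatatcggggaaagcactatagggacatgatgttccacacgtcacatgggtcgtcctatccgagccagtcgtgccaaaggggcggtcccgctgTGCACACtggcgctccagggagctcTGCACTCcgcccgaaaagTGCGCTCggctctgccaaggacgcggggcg
Mt2: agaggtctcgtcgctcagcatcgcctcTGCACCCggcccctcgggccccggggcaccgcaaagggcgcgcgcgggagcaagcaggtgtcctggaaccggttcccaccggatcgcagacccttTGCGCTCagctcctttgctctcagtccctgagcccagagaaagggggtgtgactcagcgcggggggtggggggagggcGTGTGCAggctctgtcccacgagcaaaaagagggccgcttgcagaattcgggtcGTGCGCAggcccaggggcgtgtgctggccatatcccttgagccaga
The *Mt1* window holds 3 matches and the *Mt2* window 4. Of 32851 promoters of the same length, 25.7% hold at least 1 match, 1.97% at least 3 and 0.517% at least 4. A match describes the letters only.

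Among other genes that fell most, *Igfbp2*, a carrier of insulin-like growth factors, was at 1581 and 1517 CPM in control and 362 and 333 CPM in ablated libraries (log2 -2.16, standard error 0.133, edgeR adjusted p = 2.24e-06), with groups far apart. *Tagln*, an actin-binding protein of smooth muscle, was at 40.6 and 89.8 against 9.76 and 10.5 CPM (log2 -2.67, edgeR adjusted p = 0.00145). *Ccn1*, a matricellular protein induced by stretch and growth factors, was at 172 and 259 against 42.9 and 64.9 CPM (log2 -1.99, edgeR adjusted p = 0.0005). The 2 groups did not overlap for any of these genes. *Phlda1* (-2.10), *Nav3*, a microtubule-binding navigator protein (-1.98), *Idi1*, an enzyme of isoprenoid synthesis (-1.96), and *Tpd52l1* (-1.96) fell by similar amounts. Of the 4 tested smooth muscle markers 3 fell, *Tagln*, *Acta2* and *Des*, beside 2.41% of all genes, with a list median of -2.02. *Acta2* was at 8.18 and 52.0 CPM in the controls, and without the second control library its log2 fold change was -0.93 (edgeR adjusted p = 0.249). The smooth muscle list summed to 110.3, 251, 62.3 and 43.8 CPM in the members, its most abundant gene being *Des*, *Tagln*, *Des* and *Des*. The part of smooth muscle RNA or cells in these 3 differences was not tested.

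Genes of steroid action moved in both directions. Of 7 tested receptors and enzymes, 2 rose and 2 fell, where 2.10% of all genes tested rose and 2.41% fell. *Esr1*, the estrogen receptor alpha, was at 1.79 and 0.601 against 7.81 and 16.4 CPM (log2 3.27, edgeR adjusted p = 0.00503). *Srd5a2*, which converts testosterone to dihydrotestosterone, was at 32.5 and 58.3 against 16.1 and 10.96 CPM (log2 -1.75, standard error 0.307, edgeR adjusted p = 0.00651). Control and ablated libraries did not overlap for either gene. *Hsd11b2*, which inactivates glucocorticoids, fell by 2.42 and *Hsd17b11* rose by 0.76, and neither call held in DESeq2 or without the second ablated library (edgeR adjusted p = 0.103 and 0.127). *Hsd11b2* also lost its call without the second control library (edgeR adjusted p = 0.0619) and *Hsd17b11* without the first ablated library (edgeR adjusted p = 0.260). *Nr3c1*, the glucocorticoid receptor itself, was at 112 and 124 against 149 and 142 CPM and was not called (edgeR adjusted p = 0.29).

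The pathways of the genes that gave the population its name had 1 called gene each, beside 4.50% of all genes tested. Of 9 tested prostanoid genes, 0 rose and 1 fell, *Hpgd*, the prostaglandin-degrading dehydrogenase, at 17.1 and 27.6 against 10.2 and 6.32 CPM (log2 -1.44, edgeR adjusted p = 0.0297; not called by DESeq2 or without the second ablated library). The list median was -0.29. *Ptgs1*, which makes the substrate of prostacyclin synthase, was at 4.34, 6.31, 7.32 and 5.48 CPM, with groups that overlapped. Of 10 tested coagulation and fibrinolysis genes, *Anxa5*, an anticoagulant phospholipid binder, fell (449 and 449 against 283 and 262 CPM, log2 -0.72, edgeR adjusted p = 0.0108; 0.0882 without the second ablated library) and 9 were not called, with a list median of -0.57. The thrombin receptor gene *F2r* was at 39.1, 47.2, 45.9 and 47.2 CPM. None of 12 angiopoietin and vascular growth factor genes was called (median -0.65), *Angpt1*, a ligand of the Tie2 receptor, having a log2 fold change of -1.17 and an edgeR adjusted p of 0.0530. Of 15 hypoxia and glycolysis genes, *Higd1a*, a mitochondrial protein, fell (-0.86; edgeR adjusted p = 0.0758 without the first ablated library) and 14 were not called.

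Of the Wnt list, 4 of 22 tested genes rose (*Sfrp1*, *Dkk2*, *Sfrp4*, *Wnt5a*) and 1 fell (*Sfrp2*), beside 2.10% and 2.41% of all genes tested, with a median of 0.40. *Sfrp4* was at 3.07 and 3.005 against 14.6 and 22.3 CPM (log2 2.60, edgeR adjusted p = 0.00151), and *Sfrp2* went the other way, at 879.6 and 851 against 498 and 513 CPM (log2 -0.78, edgeR adjusted p = 0.00495). *Wnt5a*, a ligand of non-canonical signalling, rose by 0.62, and was not called without either ablated library (edgeR adjusted p = 0.0531 and 0.0672). The secreted Frizzled-related proteins thus changed in opposite directions, with no overlap of groups in any of the 3.

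Of 25 BMP and activin genes, 3 rose (*Bmp5*, *Inhba*, *Nog*) and 4 fell (*Bmp4*, *Fst*, *Smoc1*, *Sostdc1*), beside 2.10% and 2.41% of all genes, with a median of 0.0013. *Bmp4*, the main BMP ligand of genital mesenchyme, was at 181 and 147 against 67.8 and 69.6 CPM (log2 -1.25, standard error 0.1695, edgeR adjusted p = 0.00145). *Fst*, follistatin, which binds activin, was at 88.2 and 125 against 34.2 and 39.2 CPM (log2 -1.53, edgeR adjusted p = 0.00145). *Nog*, noggin, which binds BMPs, was at 4.86 and 0.901 against 16.6 and 12.2 CPM (log2 2.24, edgeR adjusted p = 0.0223). Ligands and antagonists were thus each found among the genes that rose and among those that fell, and the groups did not overlap for *Bmp4*, *Fst*, *Nog* or *Inhba*. *Bmp5* was not called without the first ablated library (edgeR adjusted p = 0.0584) nor *Sostdc1* without either ablated library (edgeR adjusted p = 0.131 and 0.0826). Of 10 hedgehog genes, 1 fell, *Hhip*, a hedgehog-binding antagonist, at 33.7 and 35.5 against 11.2 and 15.2 CPM (log2 -1.38, standard error 0.238, edgeR adjusted p = 0.0058).

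In the IGF axis 3 of 15 genes rose (*Igfbp3*, *Pappa*, *Stc1*) and 3 fell (*Igfbp2*, *Igfbp5*, *Pappa2*), again beside 2.10% and 2.41% of all genes, with a median of 0.20. *Igfbp3* was at 553 and 600.1 against 1651 and 1983 CPM (log2 1.66, standard error 0.137, edgeR adjusted p = 2.79e-05), and *Igfbp5* at 577 and 977 against 254 and 292 CPM (log2 -1.51, edgeR adjusted p = 0.00151). *Pappa*, a protease that releases IGF from its carriers, was at 8.94 and 16.8 against 42.9 and 32.5 CPM and its relative *Pappa2* at 51.1 and 82.6 against 30.3 and 18.1 CPM. Carriers and proteases therefore each had 1 member that rose and at least 1 that fell, and the groups did not overlap for any of the 4 genes.

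Of 25 axon guidance and neuronal-type genes, 7 rose (*Cadm2*, *Dcc*, *Epha7*, *Robo2*, *Sema3a*, *Syt1*, *Unc5c*; 2.10% of all genes rose), with 1 that fell (*Dner*; 2.41% of all genes fell) and a median of 0.57. *Dcc*, the netrin receptor, was at 24.5 and 23.4 against 85.9 and 70.8 CPM (log2 1.70, standard error 0.191, edgeR adjusted p = 0.000423). *Unc5c*, a further netrin receptor, was at 24.3 and 22.5 against 62.0 and 54.0 CPM (log2 1.30, edgeR adjusted p = 0.00232), and *Sema3a*, a repellent ligand, at 26.3 and 25.2 against 56.6 and 51.4 CPM (log2 1.06, edgeR adjusted p = 0.00671). The control libraries lay close together and well below the ablated ones for each of these. Neuron markers summed to 6.74, 6.44, 19.9 and 20.004 CPM in the members, led by *Stmn2* at 4.49, 3.80, 15.4 and 12.8 CPM, with *Snap25* at 0 in both controls, and glia markers to 4.99, 5.27, 25.4 and 13.2 CPM. *Stmn2* rose (log2 1.69). The part of nerve RNA in these differences was not tested. *Robo2* was not called without either ablated library (edgeR adjusted p = 0.228 and 0.078), *Syt1* not without the first control library or either ablated library (edgeR adjusted p = 0.185, 0.151 and 0.238), and *Dner* not without the second control or the second ablated library (edgeR adjusted p = 0.146 and 0.168).

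All 20 cell cycle genes had a negative log2 fold change, and 9 fell (*Birc5*, *Ccnb2*, *Mcm2*, *Mcm3*, *Mcm5*, *Mcm6*, *Pcna*, *Rrm2*, *Ube2c*), beside 2.41% of all genes tested, with a median of -0.99. *Mcm6*, a subunit of the replicative helicase, was at 49.8 and 48.7 against 21.5 and 27.8 CPM (log2 -0.99, standard error 0.203, edgeR adjusted p = 0.0154), and *Mcm3* at 38.8 and 43.0 against 22.4 and 15.2 CPM (log2 -1.13, edgeR adjusted p = 0.0146). *Mki67*, a marker of all cycling cells, had a log2 fold change of -0.71 and was not called (edgeR adjusted p = 0.356). Each of the 9 lost its call in DESeq2 and without 1 or both of the ablated libraries, and the directions held except for *Birc5* under the rule on *Thbd*, *Ptgis*, *Angptl1* and *Tmeff2* (0.13). Of 22 immediate early and heat shock genes 3 fell (*Ccn1*, *Hsp90aa1*, *Hspa1a*; median -0.27; 2.41% of all genes fell), the last 2 not without the second ablated library (edgeR adjusted p = 0.0503 and 0.073).

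The counts of called matrix genes stand beside the 4.50% of all genes tested. Of 19 collagens, 1 rose, *Col8a1* (13.5 and 23.7 against 65.9 and 63.2 CPM), and 18 were not called, with a median of -0.17. *Col1a1* had a log2 fold change of -0.21. Of 25 proteoglycan and fibrous matrix genes, *Aspn*, asporin, rose (264 and 306 against 473 and 556 CPM, log2 0.85, edgeR adjusted p = 0.00623) and *Spock2*, a testican, fell (-1.10), with a median of -0.02. Of 16 proteases and inhibitors, *Mmp16*, a membrane metalloproteinase, rose (42.7 and 51.4 against 105 and 91.9 CPM, log2 1.07, edgeR adjusted p = 0.00501) and *Timp1* fell by 0.97. Among 37 position genes, *Hoxc8* and *Tbx18* rose by 0.77 and 0.72 (median 0.21), where 2.10% of all genes tested rose. Neither was called in DESeq2 or without either ablated library. Of the 15 genes enriched in the members of the controls, 0 rose and 5 fell, beside 2.10% and 2.41% of all genes tested. Those that fell were *Rtl3* (-1.34), *Dio3* (-0.93), *Calml4* (-0.64), *Cebpd* and *Sfrp2*. These 15 were chosen on the control libraries, so this direction is not independent of the choice.

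Of 8 genes that the study names for *Nr5a1* lineage cells, 7 were tested and 1 fell (2.41% of all genes fell), *Timp1*, at 29.6 and 34.6 against 16.6 and 16.02 CPM (log2 -0.97, edgeR adjusted p = 0.0283; 0.105 and 0.146 without the first or the second ablated library). The study also names *Timp1* from these libraries, so its call is not independent evidence. *Myocd*, a coactivator of smooth muscle genes, was at 6.39, 16.5, 7.32 and 1.26 CPM and was not called (log2 -1.44, edgeR adjusted p = 0.195). Without the first control library it was called (-2.003, edgeR adjusted p = 0.000107), as it was without the first ablated library (-3.12, edgeR adjusted p = 0.000915). *Grem1*, a secreted BMP antagonist, was at 12.01, 21.6, 25.4 and 26.1 CPM and *Scube2*, which was not tested, had 5, 25, 6 and 4 UMIs in the members. *Grem1* was higher in both ablated libraries but was not called (log2 0.63, edgeR adjusted p = 0.231). This depended on the controls, since without the second control library its log2 fold change was 1.09. The receptor genes *Egfr* and *Erbb2* and the ligand gene *Nrg1* were not called, with *Egfr* at 14.6, 30.0, 16.1 and 18.1 CPM, *Erbb2* at 27.3, 29.7, 31.2 and 23.2 CPM, both with overlapping groups (without the first control library *Egfr* was called, log2 -0.81, edgeR adjusted p = 0.0201, and without the second it was 0.23), and *Nrg1* at 2.04, 4.21, 4.88 and 7.17 CPM.

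The response of the members was set against that of the other mesenchyme of the same libraries. There, 164 of 15284 genes were called (1.07%), 84 higher (0.550%) and 80 lower (0.523%), and 94 genes were called in both populations, that is 94 of the 515 and 94 of the 164. The interaction of population and genotype, with each library as a block, was called for 196 of 14690 genes (1.33%), 88 with a higher (0.599%) and 108 with a lower ablated-over-control ratio in the members (0.735%). At an unadjusted p under 0.05 there were 1540 genes. With the library block left out, 0 genes were called and 549 had an unadjusted p under 0.05. Of the 515 genes called in the members, 94 were called in the interaction, so most of the 515 were not shown to differ from the other mesenchyme.

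*Rgs2*, a brake on G protein signalling, had the most negative difference among the genes named. It was at 78.2 and 114 against 37.6 and 21.5 CPM in the members and at 34.8 and 36.6 against 49.2 and 38.7 CPM in the other mesenchyme, an interaction of -2.03 (standard error 0.173, edgeR adjusted p = 5.89e-09). *Cebpd* fell in the members, and in the other mesenchyme it was at 105 and 169 against 94.4 and 82.9 CPM (interaction -1.66, standard error 0.108, edgeR adjusted p = 1.73e-11). The control members held the highest values of both genes and the ablated members values within or below the range of the other mesenchyme. *Hhip* was at 15.96 and 19.3 against 15.2 and 25.5 CPM in the other mesenchyme (interaction -1.63, edgeR adjusted p = 1.88e-05), *Tagln* at 109 and 162 against 58.8 and 63.7 CPM (-1.52, edgeR adjusted p = 0.000137) and *Ccn1* at 196 and 298 against 197 and 146 CPM (-1.46, edgeR adjusted p = 7.43e-07). The ratio of ablated to control was lower in the members for all 3.

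*Sfrp1* had the most positive difference. In the other mesenchyme it rose from 21.7 and 18.1 to 39.8 and 40.2 CPM (log2 1.01, edgeR adjusted p = 0.0345), so that it was lower in control members than in the other control mesenchyme and higher in ablated members than in the other ablated mesenchyme (interaction 2.23, standard error 0.219, edgeR adjusted p = 1.16e-07). *Stc1* likewise rose in both, by 1.30 in the other mesenchyme (interaction 1.69, edgeR adjusted p = 9.95e-06). *Chodl*, a membrane lectin, rose in the members alone among the 2 populations tested, at 55.2 and 30.3 against 132 and 114 CPM in the members and 25.7 and 23.8 against 21.0 and 17.3 CPM in the other mesenchyme (interaction 1.87, edgeR adjusted p = 8.66e-09). *Bmp4* was at 204 and 144 against 118 and 200.3 CPM in the other mesenchyme (interaction -1.15, edgeR adjusted p = 6.86e-06), and *Vcan*, versican, had an interaction of -0.77.

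*Ramp3*, a receptor partner for adrenomedullin, fell outside the members (log2 -1.35, edgeR adjusted p = 0.0225) and was not called in them (log2 0.29, edgeR adjusted p = 0.501). It was at 40.2 and 50.5 against 16.8 and 18.6 CPM outside and 23.8 and 27.3 against 35.1 and 27.4 CPM inside (interaction 1.60, edgeR adjusted p = 4.52e-06). *Grem1* had an interaction of 1.38 (edgeR adjusted p = 0.00303; 0.80 and 0.114 without the second ablated library). With at least 2 markers required, the log2 fold changes of *Ramp3* and *Grem1* in the enlarged population were -0.63 and -0.23, so their direction in the members depends on where the gradient is cut.

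**Figure D5:**
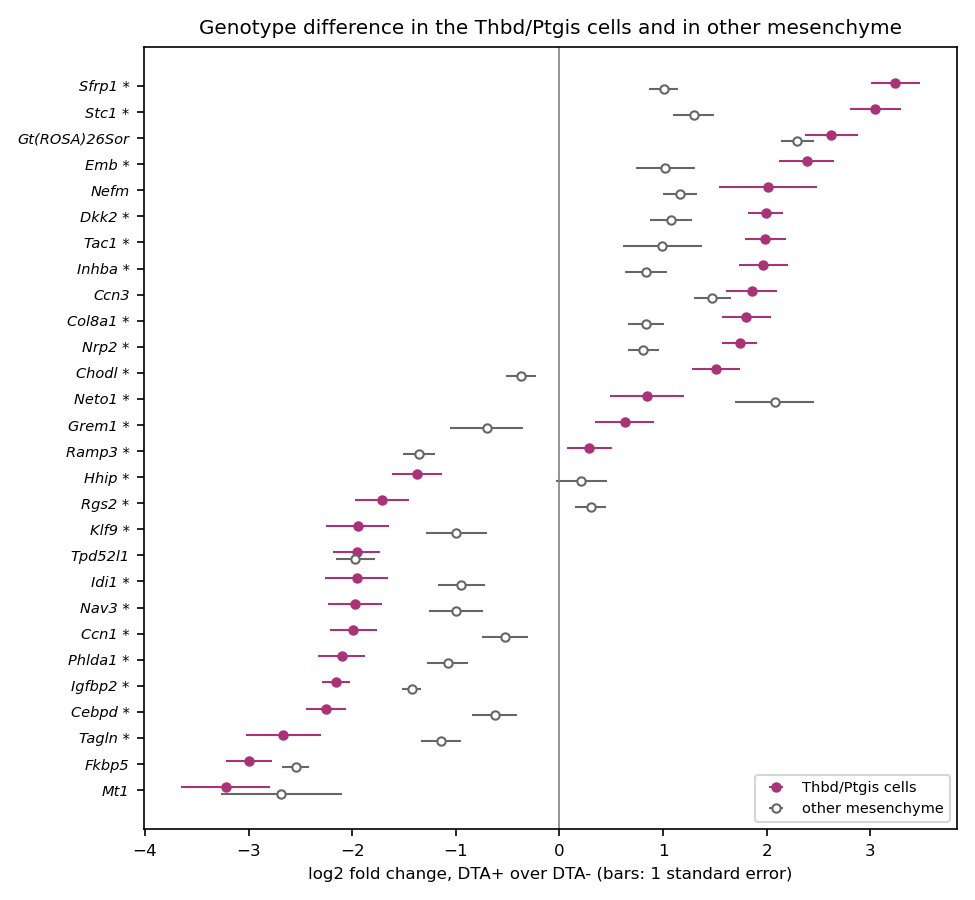
log2 fold change of ablated over control in the Thbd/Ptgis cells (filled) and in the other mesenchyme (open) for the named genes, with bars of 1 standard error and an asterisk where the interaction had an adjusted p under 0.05. *Rgs2* lies at -1.71 and 0.30, *Cebpd* at -2.25 and -0.63 and *Sfrp1* at 3.24 and 1.01.

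Many large changes did not differ from the other mesenchyme beyond the error. *Fkbp5* fell there by 2.55 (interaction -0.49, edgeR adjusted p = 0.394), *Mt1* had an interaction of -0.52 (edgeR adjusted p = 0.159), *Tpd52l1* of -0.03 (edgeR adjusted p = 0.988), *Srd5a2* of 0.15 (edgeR adjusted p = 0.896), *Gt(ROSA)26Sor* of 0.31 (edgeR adjusted p = 0.609) and *Dcc* of -0.22 (edgeR adjusted p = 0.756). *Igfbp2* fell in both and further in the members (interaction -0.76, standard error 0.0857, edgeR adjusted p = 1.45e-06), and *Igfbp3* rose in both and further in the members (0.78, edgeR adjusted p = 3.35e-07). For the glucocorticoid-induced list, 5 genes were called in the interaction, 4 of them lower in the members, against 1.33% of all genes tested (0.735% lower) and beside a list median of -0.40 in the other mesenchyme.

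Against the 2 gates whose levels correlated most with those of the members, the differences were split. Only these 2 gates were taken. The adventitial or fascial gate, next by correlation (r = 0.949, 56 cells in its smallest library), was left out by that choice, so its response was not compared with that of the members. The periurethra gate (1068 cells) had 183 of 10054 genes called between the genotypes (1.82%; 0.895% higher and 0.925% lower) and 235 of 11358 called in the interaction with the members (2.07%; 0.889% higher and 1.18% lower), and the dermis gate (10969 cells) 86 of 14014 (0.614%; 0.392% higher and 0.221% lower) and 164 of 13681 (1.20%; 0.556% higher and 0.643% lower). *Sfrp1* rose more in the members than in either (difference 1.60, edgeR adjusted p = 0.017, and 2.68, edgeR adjusted p = 1.61e-06), and *Cebpd* fell more (-1.14, edgeR adjusted p = 2.64e-05, and -1.77, edgeR adjusted p = 6.44e-08). *Chodl* differed from both gates, by 3.28 and 1.32, *Tagln* by -1.98 and -1.68 and *Bmp4* by -1.04 and -1.14, all with an edgeR adjusted p under 0.05. *Wnt2*, not called in the members, differed by -3.05 and -1.77 (edgeR adjusted p = 2.2e-05 and 2.6e-05). It rose in the periurethra gate (log2 2.66, edgeR adjusted p = 0.00598) and was not called in the dermis gate (1.28, edgeR adjusted p = 0.0791). *Wnt2* was named as enriched in the control members, so this direction is not independent of that choice. *Rgs2*, *Stc1* and *Igfbp2* differed from the dermis gate, by -2.25, 1.93 and -1.07, and were not shown to differ from the periurethra gate, where the differences were -0.50, 0.99 and -0.20 (edgeR adjusted p = 0.418, 0.16 and 0.405). *Hhip* is among the markers of the periurethra gate and *Dkk2* among those of the dermis gate, so their differences from these gates are not given. For *Fkbp5* the differences were -0.28 and -0.57 (edgeR adjusted p = 0.786 and 0.302).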

How the data were processed

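Male genitalia at E16.5 were profiled in 4 libraries, 2 per genotype. The authors deposited filtered matrices of raw UMI counts per gene and cell, made with Cell Ranger 4.0.0 on mm10 per the submitters' processing notes. Counts were summed per library over the members and over the other mesenchyme, and tested with edgeR 4.0.16 in R 4.3.3 (quasi-likelihood, TMM factors, filter on low counts, genotype as the term; library as a block in the interaction), at an adjusted p of 0.05. The standard error is the log2 fold change divided by the root of F. Levels of members beside other mesenchyme are plain CPM, and those of genotype tests TMM-corrected. List ratios used a pseudocount of 5 CPM. No doublet caller was run, and cells with 2 or more markers of another lineage were left out as an alternative. Alternatives included DESeq2 1.42.0, other marker and UMI limits, thinning and leaving out each library. Scripts used Python 3.11.15 and were tested on simulated counts. Named genes were up to 12 called genes in each direction (mean level 20 CPM or more, groups apart), up to 15 enriched genes of at least 50 CPM in both controls, the 15 lowest, up to 6 interaction genes in each direction, list members and genes the study names. Some genes of these rules and lists are not reported here. The members and lists (18 gene lists and 23 marker lists) were chosen with earlier results of these data known. Coordinates are from GENCODE annotation of GRCm38.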

Additional observations from a re-analysis of the deposited data

Results flagged for a closer look

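The genotype difference in the Thbd/Ptgis cells differed from that in the other mesenchyme by the interaction test for 196 genes. Among the named genes, the difference of log2 fold changes (members minus other mesenchyme) was negative for *Rgs2* (-2.03), *Cebpd* (-1.66), *Hhip* (-1.63), *Tagln* (-1.52), *Ccn1* (-1.46), *Neto1* (-1.25), *Phlda1* (-1.06), *Nav3* (-1.04), *Idi1* (-1.04), *Klf9* (-1.01) and *Igfbp2* (-0.76). It was positive for *Sfrp1* (2.23), *Chodl* (1.87), *Stc1* (1.69), *Ramp3* (1.60), *Grem1* (1.38), *Emb* (1.37), *Inhba* (1.12), *Tac1* (1.00), *Col8a1* (0.94), *Dkk2* (0.91) and *Nrp2* (0.90). Without the first ablated library *Emb* (0.68), *Idi1* (-0.86) and *Tac1* (0.55) lost the call, without the second *Grem1* (0.80) and *Nav3* (-0.60), without the first control library *Tac1* (0.56), and without the second control library *Neto1* (-1.08). By correlation, not corrected for the number of cells per gate, the periurethra gate was closest to the members (r = 0.962), with the dermis gate almost level (0.961). Not shown to differ from the periurethra gate were *Inhba* (0.70, edgeR adjusted p = 0.303), *Tac1* (0.40, 0.616), *Emb* (1.34, 0.0963) and *Grem1* (0.80, 0.58). The same held for *Col8a1* (-0.67, 0.341), *Dkk2* (0.18, 0.773), *Phlda1* (0.14, 0.898), *Klf9* (-0.57, 0.29) and *Nav3* (-0.92, 0.204), and for *Rgs2*, *Stc1* and *Igfbp2*. *Emb* (1.33, edgeR adjusted p = 0.129) and *Grem1* (1.24, edgeR adjusted p = 0.0686) were not shown to differ from the dermis gate either.

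The reporter *tdTomato*, outside the endogenous genes, had 182 and 187 UMIs in the members of the 2 ablated libraries and 0 in those of the controls.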

How the results depend on the processing

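Of 1619 values of the 114 named results under alternatives, 1392 kept direction and side of the threshold, 192 lost the call, 16 gained one and 19 changed sign; the causes were not tested. Against 515 called genes, the likelihood ratio test gave 811, DESeq2 260, no filter on low counts 1049, at least 4 markers 263, at most 7500 UMIs 779, 1000 UMIs per cell 11 of 1029 tested, and at least 2 of *Thbd*, *Ptgis*, *Angptl1* and *Tmeff2* 258. Leaving out 1 library gave 330 to 1731. Same-numbered libraries did not deviate together (r = -0.239 over 6230 genes). With 2 libraries per group this correlation cannot settle whether the numbers pair them, and the main fit used no pairing. A replicate block gave 409 calls and the crossed pairing 1505. Against 196 interaction genes, no library block gave 0 (549 at an unadjusted p under 0.05), and leaving out 1 library gave 172 to 301. The log2 ratio of shares, -0.58, was -0.28 with at least 2 markers, -1.01 with at least 4, -0.89 with the 4-gene rule, -0.032 at 1000 UMIs and -0.68 to -0.47 without 1 library. Signs changed in the members for *Akap12* (0.14; -0.29 and -0.12 without the first control or first ablated library, 0.75 without the second control, -1.24 at 1000 and -0.077 at 3000 UMIs), *Birc5* (0.13, 4-gene rule), *Egfr* (-0.81 without the first control, 0.23 without the second, 0.24 with at least 4 markers), *Erbb2* (0.14 without the second ablated library), *Itga4* (-0.40 and -0.65 without the first control or first ablated library, 1.23 without the second control, -0.21, 4-gene rule), and with at least 2 markers *Grem1* (-0.23) and *Ramp3* (-0.63). Interactions changed sign for *Ccn3* (-0.033 without the first and 0.85 without the second control library), *Tpd52l1* (0.078 and -0.084), and against the periurethra gate for *Col8a1* (-0.67), *Nefm* (-1.63), *Phlda1* (0.14) and *Tpd52l1* (1.38).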

Other observations

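Enzymes of cholesterol synthesis are a group chosen after its values were seen, and no test of the group is given. Of 17 tested enzymes 8 fell (*Idi1*, *Fdft1*, *Fdps*, *Hsd17b7*, *Msmo1*, *Mvd*, *Mvk*, *Sqle*), beside 2.41% of all genes tested, 0 rose and all 17 had a negative log2 fold change, with a median of -0.94 in the members and -0.54 in the other mesenchyme. *Msmo1*, a sterol demethylase, was at 37.8 and 44.2 CPM in control and 12.7 and 11.8 CPM in ablated libraries (log2 -1.74, standard error 0.230, edgeR adjusted p = 0.00129). *Sqle*, squalene epoxidase, was at 29.6 and 36.7 against 10.2 and 14.3 CPM (log2 -1.41, edgeR adjusted p = 0.00735). The groups did not overlap for either gene. The cholesterol exporter *Abca1* (19.4 and 20.7 against 60.0 and 46.8 CPM, log2 1.41, edgeR adjusted p = 0.00224) and *Mylip* (log2 1.06, edgeR adjusted p = 0.00755) rose. Of the enzymes, 2 were called in the interaction (1.33% of all genes) and 0 in the other mesenchyme (1.07% of all genes).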
